A study of Rattus norvegicus with 24 samples.

Results

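The experiment compared sciatic nerve RNA of Pmp22 transgenic (Tg) and wild-type (Wt) rats at embryonic day 21 (E21). Its samples were the 4 count columns labelled E21 Tg and the 4 labelled E21 Wt, which made 8 of the 24 samples of the series. The other samples came from the same genotypes at postnatal day 6 (P6) and postnatal day 18 (P18), with 4 biological replicates for each genotype and age. Tg rats of the line SD-Tg(Pmp22)Kan carry extra copies of mouse Pmp22 and are a model of Charcot-Marie-Tooth disease type 1A, and Wt rats lack the transgene. The epineurium was removed, the nerves were snap frozen, and polyadenylated RNA was sequenced as single-end 50 bp reads. Reads were counted on rat gene models, so how many transgene reads entered the Pmp22 row was not tested. The labels do not say whether nerves of several embryos were pooled or which sex they had.

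Schwann cells arise from neural crest through Schwann cell precursors and immature Schwann cells, which sort axons and then myelinate them. PMP22 is a membrane protein of compact myelin, and its overexpression in Schwann cells disturbs myelination. Each Schwann cell with its axons is wrapped in a basal lamina of laminins, type IV collagens, nidogens and heparan sulfate proteoglycans such as perlecan, which it contacts through integrins and dystroglycan.

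Total rounded expected counts of Wt replicates 1 to 4 were 18476034, 16469164, 12513822 and 25164842, and those of Tg replicates 1 to 4 were 17314515, 19239169, 20573331 and 15123077. The groups therefore overlapped in depth, with medians of 17472599 in Wt and 18276842 in Tg. Levels are given as CPM, counts scaled to library size, normalized over the 8 E21 samples with the TMM method, and replicates are always listed in the order 1 to 4. Differences are log2 fold changes, Tg minus Wt, from the quasi-likelihood F test of edgeR, with p-values adjusted over all 15762 genes tested by the Benjamini-Hochberg method.

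The label of peripheral nerve before myelination was examined through Schwann cell genes. Sox10, the transcription factor of the Schwann lineage, had 229.2, 222.9, 169.3 and 177.4 normalized CPM in Wt and 201.9, 276.6, 219.1 and 239.1 in Tg. Erbb3, the neuregulin receptor of Schwann cells, had 656.6, 647.3, 693.1 and 600.1 normalized CPM in Wt and 738.1, 776.2, 627.1 and 767.7 in Tg. Both genes were read in all 8 samples, and the genotypes overlapped for each. With all 24 samples normalized together, the Wt mean of Mbp, a protein that compacts the cytoplasmic faces of myelin, was 628.2 normalized CPM at E21, 16760 at P6 and 22550 at P18. For Egr2, the transcription factor that drives myelin genes, these Wt means were 9.39, 218.6 and 354.3 normalized CPM. Ngfr, the neurotrophin receptor of immature Schwann cells, ran the other way, with Wt means of 342.2, 109.4 and 44.95 normalized CPM. The E21 nerves were thus low in myelin transcripts and high in an immature marker beside the later ages.

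Samples of the same genotype stood apart in their content of muscle RNA. Acta1, the actin of skeletal muscle, had 1.92, 458.9, 5.40 and 684.5 normalized CPM in Wt and 3.40, 1204, 203.1 and 5.02 in Tg. Wt replicates 2 and 4 and Tg replicates 2 and 3 were thus high, and the other 2 samples of each genotype were low. The 29 skeletal muscle markers with a row in the table, of which Acta1 was the most abundant, summed to 62.05, 2815, 86.88 and 4246 normalized CPM in Wt and 71.3, 6801, 1137 and 83.72 in Tg. None of the 28 markers tested was called by edgeR, none reached an unadjusted p under 0.05, DESeq2 also called 0 of them, and their median log2 fold change was 0.10. The leading principal component of the 8 samples held 46.8% of the variance, with scores of -25.4, 20.6, -27.6 and 30.1 in Wt and -25.9, 46.9, 7.62 and -26.3 in Tg, and the high-muscle samples had the positive scores in both genotypes.

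The samples also differed in Y-linked transcripts. The 5 Y-linked genes with a row, led by Eif2s3y, summed to 154.4, 186.8, 52.31 and 94.28 normalized CPM in Wt and 64.38, 0.512, 84.44 and 74.73 in Tg. Tg replicate 2 was nearly devoid of them, and the other 7 samples had them at unequal levels. Sry was at 0 in all 8 samples. Sex composition was not in the labels, and its part in the results was not tested beyond a fit with Eif2s3y as covariate, added after the values were seen, which left the log2 fold change of Hspg2 at 1.353 (adjusted p = 0.151).

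Some structural RNA moved with genotype, which was noticed after the values were seen. The 34 rows of 5.8S ribosomal RNA summed to 19.12, 25.44, 19.52 and 34.92 normalized CPM in Wt and 63.92, 129.9, 45.57 and 112.2 in Tg. The 34 rows of 7SL RNA, the RNA of the signal recognition particle, summed to 6.825, 8.398, 5.17 and 10.55 normalized CPM in Wt and 25.53, 38.56, 21.11 and 36.22 in Tg. Every Tg sample was above every Wt sample for both sums. Library preparation dates and batches are not in the labels, and their part in this difference was not tested. The genotypes overlapped for 5S ribosomal RNA, with 1.354, 1.003, 0.772 and 1.401 normalized CPM in Wt and 1.844, 2.97, 1.233 and 2.28 in Tg. They also overlapped for 7SK RNA, with 9.702, 10.15, 8.87 and 13.2 normalized CPM in Wt and 11.47, 15.16, 8.98 and 19.15 in Tg. Copies of these RNAs share sequence, reads were divided among them, and single rows are therefore uncertain. A fit with the summed 5.8S and 7SL RNA as covariate left the log2 fold change of Hspg2 at 1.163 and that of Pmp22 at 0.09603, each with an adjusted p of 0.9998. Because the covariate itself set the genotypes apart, this fit cannot separate it from genotype. The SE of Hspg2 was 0.27 in it, against 0.13 without the covariate. In that edgeR fit 31 of 84 named genes changed sign, 0 genes were called, and 522 had an unadjusted p under 0.05. Sums of mitochondrial transcripts averaged 60130 normalized CPM in Wt and 59700 in Tg, and those of ribosomal protein genes averaged 29600 and 30040.

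**Figure D1:**
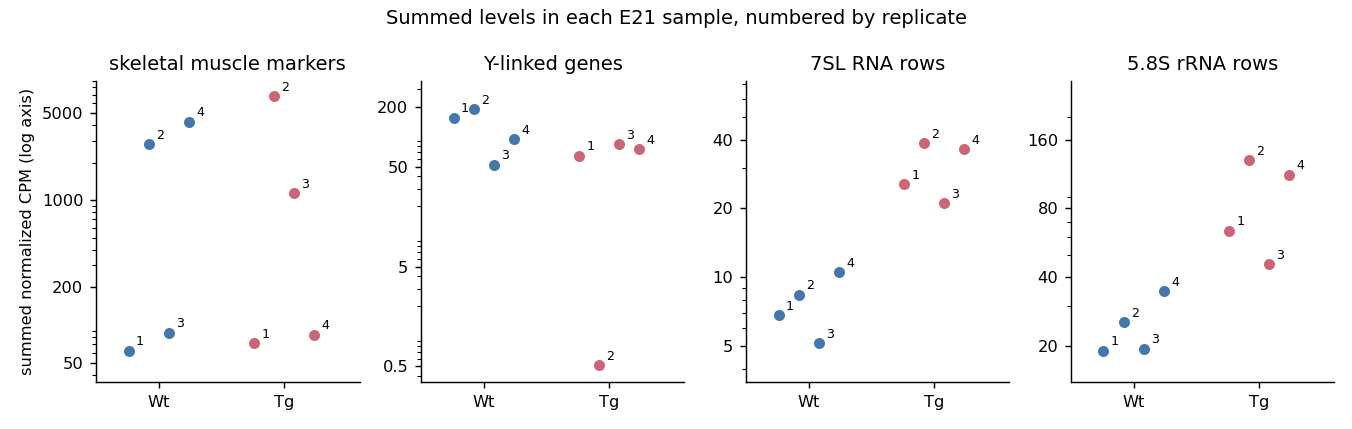
Summed normalized CPM on a log axis of skeletal muscle markers, Y-linked genes, 7SL RNA rows and 5.8S ribosomal RNA rows in each E21 sample, with Wt in blue, Tg in red and points numbered by replicate. Muscle RNA is high in 2 samples of each genotype, Tg replicate 2 nearly lacks Y-linked transcripts, and the 2 structural RNA sums lie higher in each Tg sample than in each Wt sample.

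Over the whole table, 1 of 15762 genes tested had an adjusted p under 0.05 (0.00634%), and it was Hspg2. At an unadjusted p under 0.05 there were 883 genes (5.6%), 570 of them higher in Tg (3.62%) and 313 lower (1.99%). Genes whose 4 Tg samples all lay above the 4 Wt samples numbered 355 (2.25%), and those with all 4 below numbered 230 (1.46%). The median log2 fold change of all genes tested was 0.00207. DESeq2 on the same 8 samples called 69 of the 15762 genes (0.438%), 66 higher in Tg and 3 lower, and Hspg2 was the 1 gene called by both tools. Of those 69, 9 were rows of 5.8S or 7SL RNA, and 68 had no overlap between the genotypes. The called rows of 5.8S RNA shared a log2 fold change of 1.838, and AABR07015066.1 and AABR07015078.1 shared one of 1.783. Such repeated rows make the separate results fewer than 69. With the Acta1 level of each sample as a covariate, edgeR again called 1 gene, Hspg2, and 928 genes had an unadjusted p under 0.05. The plot of all genes by level shows Hspg2 as the called point and the wide scatter of genes at low levels.

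**Figure D2:**
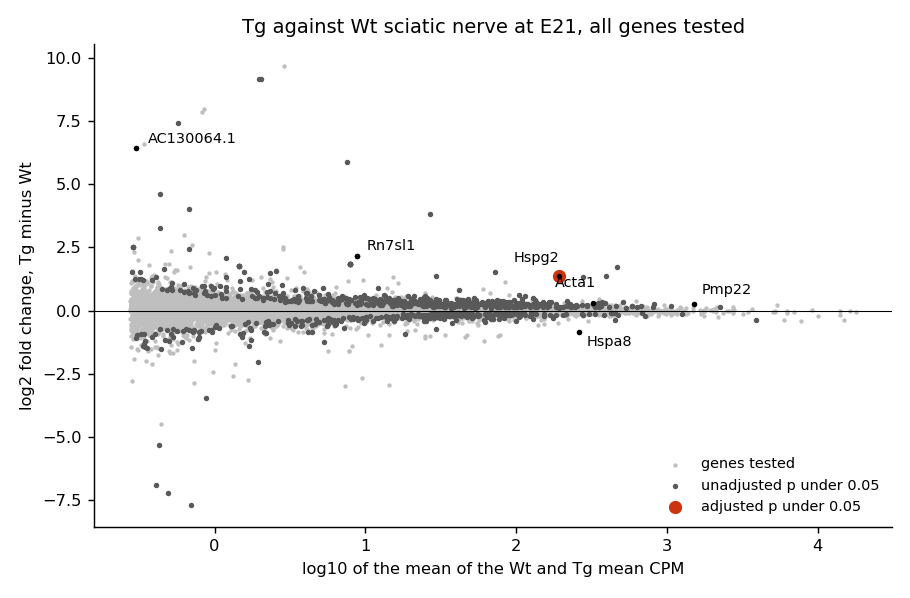
Log2 fold change at E21, Tg minus Wt, against the log10 of the mean of the 2 genotype mean levels in normalized CPM, with 1 point for each gene tested. Dark points have an unadjusted p under 0.05, the red ring marks the gene with an adjusted p under 0.05, Hspg2, and named points include Pmp22, Acta1, Hspa8, Rn7sl1 and AC130064.1.

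Hspg2 (ENSRNOG00000021437) encodes perlecan, the large heparan sulfate proteoglycan of basal laminae. It had 109.6, 81.16, 113.2 and 124.2 normalized CPM in Wt and 256.4, 266.1, 262.7 and 314.3 in Tg. Every Tg sample lay above every Wt sample, with Tg replicate 4 the highest and Wt replicate 2 the lowest, and its deposited counts were whole numbers in all 8, as in a row that shares no reads. Mean levels were 107 ± 18.3 CPM for Wt and 274.9 ± 26.6 for Tg (SD, 4 samples each), and the gap between the groups exceeded the spread within either. Hspg2 was 2.57-fold higher in Tg, a log2 fold change of 1.36 with SE 0.13. By edgeR its p was 1.57e-06 and its adjusted p 0.0248. DESeq2 gave it a log2 fold change of 1.36 and an adjusted p of 5.29e-26. The Acta1 covariate left the log2 fold change at 1.36 (adjusted p = 0.0197), while among the 4 samples low in Acta1 it was 1.357 (adjusted p = 0.0564) and among the 4 high in Acta1 it was 1.355 (adjusted p = 0.9999), neither called. The call by edgeR depended on single samples. The adjusted p was 0.204 without Wt replicate 1, 0.162 without Wt replicate 3, 0.101 without Tg replicate 1, 0.0775 without Tg replicate 2, 0.1204 without Tg replicate 3 and 0.105 without Tg replicate 4. It stayed under 0.05 without Wt replicate 2 (0.00791) and without Wt replicate 4 (0.0449), and the log2 fold change with 1 sample left out ran from 1.25 to 1.44. In bulk nerve, more cells that express Hspg2 and more Hspg2 RNA in each cell cannot be told apart, and the same holds for fewer cells and less RNA per cell in each gene described here.

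Pmp22 (ENSRNOG00000003338) had 1479, 1391, 1346 and 1343 normalized CPM in Wt and 1648, 1755, 1501 and 1713 in Tg. Each Tg value was above each Wt value, though Tg replicate 3 and Wt replicate 1 lay close together. Mean levels were 1390 ± 63.5 CPM for Wt and 1654 ± 111 for Tg (SD, 4 samples each). This 1.19-fold difference was a log2 fold change of 0.25 with SE 0.06. The edgeR p was 0.00224, and the adjusted p of 0.412 missed the threshold. DESeq2 called Pmp22 higher in Tg, with a log2 fold change of 0.25 and an adjusted p of 0.0124. Over the other settings run on the E21 samples the log2 fold change of Pmp22 ran from 0.096 to 0.30 and never changed sign, and DESeq2 was the setting that called it.

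AC130064.1 (ENSRNOG00000056045) is an Ensembl gene model named after a genomic clone, with no row in the RefSeq gene table of the rat, and its function is not known here. Its counts were 0 in all 4 Wt samples and 7, 12, 11 and 13 in the Tg samples. As levels, the Tg samples had 0.403, 0.615, 0.543 and 0.847 normalized CPM. It was thus read in each Tg sample and in no Wt sample, at a depth of few counts. The 4 Wt libraries together allow up to 0.0415 normalized CPM, taken as 3 counts over the group, so the Tg mean of 0.602 was at least 14.5-fold higher. This floor covers counting error only. The row passed the filter, a mean normalized count of 5, only through the Tg samples, so its tests add nothing to these counts. The edgeR test gave an adjusted p of 0.182 and DESeq2 one of 0.00108. The plot of the 3 genes by sample shows the wide gap for Hspg2, the narrow one for Pmp22 and the Wt samples of AC130064.1 at 0.

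**Figure D3:**
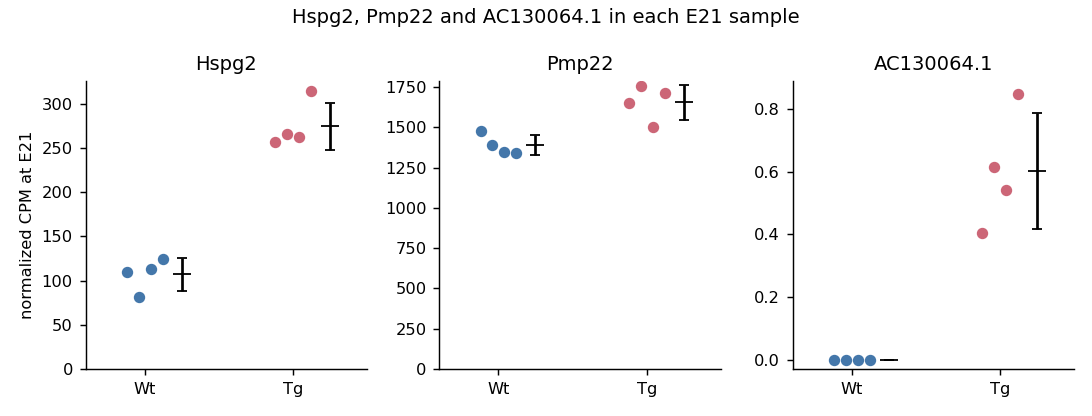
Normalized CPM at E21 of Hspg2, Pmp22 and AC130064.1 in each Wt (blue) and Tg (red) sample, with black marks for the mean and SD of 4 samples. The 4 Tg points lie above the 4 Wt points in each panel, from 256.4 against 124.2 at the nearest for Hspg2 and from 1501 against 1479 for Pmp22.

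The genes next in rank by p were taken among those higher in Tg with a mean count of at least 50 and no overlap. They had adjusted p-values from 0.182 to 0.22 and were not called by edgeR. Except for Ndst1, the lack of overlap in this paragraph and the next was therefore set by the choice. Sh3pxd2a, the scaffold protein of podosomes also named Tks5, had 27.24, 25.95, 36.42 and 31.26 normalized CPM in Wt and 61.79, 57.76, 47.59 and 46.65 in Tg. The genotypes did not overlap, and Tg replicates 1 and 2 were the highest. Its log2 fold change was 0.82 (adjusted p = 0.182). Ndst1, taken from the list of heparan sulfate genes, makes the N-sulfate groups of heparan sulfate, the side chains of perlecan, and had 34.13, 28.95, 36.57 and 36.83 normalized CPM in Wt and 51.01, 49.72, 44.44 and 43.98 in Tg. The 4 Tg samples again lay above the 4 Wt samples, with a log2 fold change of 0.47 (adjusted p = 0.241). Hdac4, a class IIa histone deacetylase, had 22.11, 19.68, 18.75 and 20.59 normalized CPM in Wt and 29.39, 28.98, 27.37 and 26.58 in Tg, a log2 fold change of 0.47. The zinc finger gene Zfp516 had 17.03, 13.54, 14.89 and 16.86 normalized CPM in Wt and 24.78, 23.15, 22.19 and 21.76 in Tg, a log2 fold change of 0.56. For both genes the values within a genotype lay close together beside the gap between genotypes.

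Prrc2b, which encodes a proline-rich protein, had 63.74, 59.6, 66.05 and 66.6 normalized CPM in Wt and 88.59, 87.36, 81.28 and 80.98 in Tg. Its log2 fold change was 0.40 (adjusted p = 0.182), with all Tg samples above all Wt samples. The gene model AABR07000398.1, whose function is not known here, had 227.0, 222.9, 143.4 and 280.0 normalized CPM in Wt and 689.9, 1061, 444.7 and 659.5 in Tg, a log2 fold change of 1.71. Its lowest Tg sample, replicate 3, was still above its highest Wt sample, replicate 4. The log2 fold change of this row ran from 0.38 to 1.88 over the settings, lowest with structural RNA as covariate. With all 24 samples normalized together, P18 Tg replicate 4 and P18 Wt replicate 4 were its highest samples at 7607 and 1365 normalized CPM, and they were also the highest for the 7SL copy Rn7sl1, at 245.0 and 50.48. Mical3, an actin-oxidizing enzyme, had a log2 fold change of 0.42, and Pcdhgc3, a clustered protocadherin that shares exons with its neighbours and is therefore uncertain, one of 0.26. Rn7sl1 and Metazoa_SRP are copies of 7SL RNA with identical counts, so their shared log2 fold change of 2.16 (adjusted p = 0.182) is 1 result. DESeq2 called each gene of this paragraph and the preceding one.

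Of genes lower in Tg, the 10 with the smallest p were taken among those with a mean count of at least 50 and no overlap. Their lack of overlap was thus set by the choice, and Hspa8 had the widest difference of these 10. Hspa8 (ENSRNOG00000034066), the constitutive heat shock chaperone of the cytosol, had 312.4, 318.1, 371.6 and 354.4 normalized CPM in Wt and 223.6, 221.6, 180.3 and 117.9 in Tg. All Tg samples lay below all Wt samples, with Tg replicate 4 the lowest. Its log2 fold change was -0.87 (adjusted p = 0.299). Another row with this symbol was near 0, and its deposited values were not whole numbers, so that it shares reads with other rows and its level is uncertain. Egln3, a prolyl hydroxylase of the oxygen sensing pathway, had 47.16, 39.36, 45.45 and 47.18 normalized CPM in Wt and 38.04, 33.23, 34.77 and 33.68 in Tg. The groups came close at Wt replicate 2 and Tg replicate 1, and the log2 fold change was -0.36 (adjusted p = 0.26). Cnr1, a cannabinoid receptor, had 7.95, 8.52, 6.25 and 7.55 normalized CPM in Wt and 4.21, 5.63, 5.72 and 5.08 in Tg, a log2 fold change of -0.55 (adjusted p = 0.542). The others of the 10 were Naaa, Tcte1, Bace2, RGD1563962, Arsb, Slc5a6 and Josd1, with log2 fold changes from -0.60 to -0.20, and DESeq2 called Hspa8 and Egln3 among the 10.

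The gene lists that follow are read beside all genes tested, of which 3.62% were higher and 1.99% lower at an unadjusted p under 0.05, and 2.25% were higher and 1.46% lower without overlap. Schwann lineage and precursor genes overlapped between the genotypes. Of 22 listed, 21 had a row and 19 were tested, of which edgeR and DESeq2 each called 0. At an unadjusted p under 0.05, 1 was higher in Tg and 0 lower, none was without overlap, and 14 of the 19 had a log2 fold change above 0. The list's median log2 fold change was 0.081, against 0.00207 over all genes, and it was 0.0207 without Tg replicate 1 and 0.133 without Tg replicate 3. Sox10 had a log2 fold change of 0.23 (adjusted p = 0.928) and Erbb3 one of 0.16 (adjusted p = 0.904). Cdh19, a cadherin of Schwann cell precursors, had 94.25, 91.5, 91.2 and 76.84 normalized CPM in Wt and 96.02, 83.78, 81.77 and 107.7 in Tg, a log2 fold change of 0.062. Dhh, the hedgehog ligand that Schwann cells send to the perineurium, had 132.3, 135.9, 121.6 and 116.5 normalized CPM in Wt and 122.0, 160.8, 125.4 and 153.6 in Tg, a log2 fold change of 0.15. The genotypes overlapped for each of these genes. Ncam1, an adhesion molecule of immature and non-myelinating Schwann cells, had 313.8, 288.8, 322.9 and 310.1 normalized CPM in Wt and 389.4, 388.7, 293.3 and 351.1 in Tg, a log2 fold change of 0.20. Gap43, a growth-associated protein, had 19.46, 19.62, 20.99 and 23.55 normalized CPM in Wt and 20.98, 10.19, 28.61 and 16.42 in Tg, where the Tg samples were the more spread and the log2 fold change was -0.13. Foxd3 was not analysed here, and Pax3 and Fabp7 were below the count filter.

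Of the immature and repair Schwann cell genes, all 22 listed had a row and 19 were tested, 0 were called by edgeR, and DESeq2 called Notch1. At an unadjusted p under 0.05, 2 were higher in Tg and 1 lower, and 1 was without overlap. The median log2 fold change was 0.073, with 11 above 0 and 8 below, and it was 0.0405 without Wt replicate 4 and 0.008 without Tg replicate 4. Jun, the transcription factor of the repair state, had 78.97, 74.52, 73.84 and 80.77 normalized CPM in Wt and 78.44, 80.14, 79.31 and 86.39 in Tg, a log2 fold change of 0.073. Sox2, which holds Schwann cells immature, had 33.0, 39.36, 32.17 and 27.21 normalized CPM in Wt and 29.22, 37.69, 32.3 and 44.24 in Tg, a log2 fold change of 0.12. Ngfr had 367.0, 393.8, 318.0 and 350.1 normalized CPM in Wt and 392.6, 436.9, 363.7 and 368.3 in Tg, a log2 fold change of 0.13. Samples of the genotypes overlapped for Jun, Sox2 and Ngfr. Bdnf, a neurotrophin, had the lowest log2 fold change of the list, -0.82, and Gdnf and Shh were below the count filter.

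Notch1, a receptor that acts in Schwann cell precursors and immature Schwann cells, had 159.5, 146.8, 148.8 and 144.9 normalized CPM in Wt and 168.0, 210.7, 181.7 and 199.7 in Tg. All 4 Tg samples were above the Wt samples, and Tg replicate 1 came near Wt replicate 1. Its log2 fold change was 0.34 (adjusted p = 0.333 by edgeR), and DESeq2 called it higher in Tg (adjusted p = 0.00441). Notch2, a receptor of the same family, had 27.24, 22.69, 26.47 and 28.42 normalized CPM in Wt and 33.95, 30.98, 32.5 and 28.86 in Tg, a log2 fold change of 0.27 (adjusted p = 0.666). Of the 22 Notch ligands, receptors and targets, 21 were tested, edgeR called 0 and DESeq2 called Notch1. Higher in Tg at an unadjusted p under 0.05 were 3, with 2 without overlap, and 0 were lower. The median of the list was 0.00325, with 11 above 0 and 10 below. Its sign rested on single samples, with -0.0255 without Wt replicate 2, -0.000368 without Wt replicate 4, -0.0206 without Tg replicate 1 and -0.0485 without Tg replicate 3. It was 0.00488 without Wt replicate 1, 0.0441 without Wt replicate 3, 0.0402 without Tg replicate 2 and 0.02495 without Tg replicate 4, and 0.01368 when scaled to total counts alone and 0.005366 with the Acta1 covariate. The Notch target Hes5 was below the count filter.

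Transcription factors and chromatin regulators of myelination counted 23 listed and 21 tested, and both edgeR and DESeq2 called 0. Higher in Tg at an unadjusted p under 0.05 were 4 of the 21 (3.62% of all genes), each without overlap between the genotypes (2.25%), and 0 were lower (1.99%). The median log2 fold change was 0.057, with 15 above 0 and 6 below, and it was 0.0887 without Tg replicate 3. Egr2 had 7.39, 13.54, 7.10 and 11.17 normalized CPM in Wt and 9.11, 11.52, 14.2 and 10.95 in Tg, and the groups overlapped broadly (log2 fold change 0.22). Egr3, a zinc finger factor of the same family, had 26, 26.7, 23.92 and 29.43 normalized CPM in Wt and 36.48, 34.0, 30.78 and 29.77 in Tg. Its highest Wt and lowest Tg samples nearly met, and the log2 fold change was 0.30 (adjusted p = 0.597). Wwtr1, the transcriptional coactivator TAZ of the Hippo pathway, had 60.47, 56.9, 56.87 and 62.63 normalized CPM in Wt and 70.78, 71.64, 66.04 and 68.86 in Tg, a log2 fold change of 0.23 (adjusted p = 0.373). Ski, a corepressor, and Srebf1, a transcription factor, made up the 4, with log2 fold changes of 0.25 and 0.23. Pou3f1 and Sox4 were not analysed here.

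Ligands, receptors and adhesion molecules of radial sorting and myelination were 28 listed and 27 tested, with 0 called by edgeR and by DESeq2. Smo, which carries the hedgehog signal, was the 1 gene of this list with an unadjusted p under 0.05. It had 108.8, 103.7, 104.9 and 103.4 normalized CPM in Wt and 94.52, 96.12, 99.53 and 97.73 in Tg. Its Tg samples were all below its Wt samples, by a small log2 fold change of -0.12 (adjusted p = 0.8288). Nrg1, the axonal growth factor that Erbb2 and Erbb3 receive, had 3.05, 3.45, 3.70 and 3.66 normalized CPM in Wt and 4.73, 3.07, 2.96 and 3.13 in Tg, a log2 fold change of 0.0022. Tg replicate 1 was the highest for Nrg1 and the other Tg samples lay among or below the Wt samples. The list's median log2 fold change was 0.036, with 17 above 0 and 10 below. It was 0.01236 without Wt replicate 2, 0.0226 without Tg replicate 1, 0.0735 without Tg replicate 3 and 0.0142 without Tg replicate 4.

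Myelin protein and myelin-associated genes were 31 listed and 30 tested. None was called by edgeR, DESeq2 called Pmp22, and 3 were higher in Tg at an unadjusted p under 0.05 and 0 lower. Of these 3, Pmp22 was without overlap. Mbp had 783.3, 650.3, 588.8 and 599.9 normalized CPM in Wt and 725.4, 776.5, 611.0 and 794.8 in Tg, a log2 fold change of 0.15 with overlap. Mag, an adhesion protein of the inner myelin layer, had 49.02, 40.86, 36.11 and 39.24 normalized CPM in Wt and 48.18, 49.72, 47.3 and 53.03 in Tg. Its Wt replicate 1 lay within the Tg range, and the log2 fold change was 0.26 (adjusted p = 0.822). The list's median was 0.065, with 22 above 0 and 8 below. It was 0.01502 without Wt replicate 4, 0.0379 without Tg replicate 1, 0.02045 without Tg replicate 2 and 0.117 without Tg replicate 3. Ncmap was below the count filter.

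For basal lamina genes the log2 fold changes had their median at 0.108, and 19 of 23 tested were above 0 and 4 below. This median was the highest of the 14 lists but for the fit without Tg replicate 3, where it was 0.124 and that of Schwann lineage genes 0.133. Hspg2 was the 1 gene of the list called by either tool. Taken at an unadjusted p under 0.05, 6 of the 23 were higher in Tg (3.62% of all genes) and 0 lower (1.99%), and 2 were higher without overlap (2.25%). Hspg2 is counted among the 6, the 2 and the 19, and in the sums below. The list was chosen with earlier results of these data known, so these counts are not separate support. Col4a2, a chain of the type IV collagen network, had 802.4, 684.0, 716.7 and 777.2 normalized CPM in Wt and 829.0, 845.6, 916.2 and 956.6 in Tg. The Tg samples were all above the Wt samples, with a log2 fold change of 0.25 (adjusted p = 0.595). Col4a1, its partner chain, had a log2 fold change of 0.15, and Lamb2 and Lamc1, laminin chains of the nerve, had 0.20 and 0.19. Nid1, which links laminin to collagen, had a log2 fold change of 0.011. Summed over the 25 genes with a row, led by Col4a1, the list had 12240, 11140, 11880 and 11810 normalized CPM in Wt and 13210, 12600, 12560 and 13380 in Tg, where each Tg sum was above each Wt sum. Col15a1 was at 0 in all 8 samples, and Col4a6 was below the count filter.

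Of the receptors that face the basal lamina and their partners, all 25 listed were tested, edgeR and DESeq2 called 0, and 1 was higher in Tg at an unadjusted p under 0.05 and 0 lower. The median log2 fold change was 0.036, with 15 above 0 and 10 below, and it was 0.02205 without Wt replicate 2, -0.00657 without Wt replicate 4, -0.0127 without Tg replicate 2, 0.0118 without Tg replicate 4 and 0.01977 with the Acta1 covariate. Dag1, the dystroglycan that binds laminin and perlecan, had 1211, 1228, 1195 and 1125 normalized CPM in Wt and 1284, 1490, 1141 and 1216 in Tg, a log2 fold change of 0.11 with overlap.

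Heparan sulfate proteoglycan cores and their assembly enzymes were 37 listed and 33 tested. The called gene was again Hspg2, and DESeq2 called Hspg2 and Ndst1. Counted at an unadjusted p under 0.05, 3 were higher in Tg and 4 lower, with 2 and 2 without overlap, and the median log2 fold change was -0.027. That median was -0.0451 without Wt replicate 2, -0.00989 without Tg replicate 1, -0.0128 without Tg replicate 4 and -0.01368 when scaled to total counts alone. Gpc3, a proteoglycan anchored in the membrane, had 803.6, 752.5, 760.2 and 757.8 normalized CPM in Wt and 693.7, 568.5, 724.3 and 650.7 in Tg. Its Tg samples lay below its Wt samples, with a log2 fold change of -0.22 (adjusted p = 0.776). Ext2, a polymerase of the heparan sulfate chain, had 209.2, 187.9, 190.9 and 189.0 normalized CPM in Wt and 175.7, 162.7, 183.1 and 175.1 in Tg, a log2 fold change of -0.16. Ext1, its partner, had a log2 fold change of -0.14, and Hs3st1, which adds sulfate to finished chains, one of -0.59. Genes of this list therefore lay on both sides of 0, with Hspg2 far above the rest.

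Fibrillar matrix and matricellular genes had a median log2 fold change of -0.059 over 25 tested, 6 above 0 and 19 below, and it was -0.0386 without Wt replicate 1, -0.0262 without Tg replicate 1, 0.0106 without Tg replicate 2 and -0.1765 without Tg replicate 3. Both tools called 0, and 0 were higher and 1 lower at an unadjusted p under 0.05. Bgn, a small proteoglycan that binds collagen fibrils, had 506.0, 420.9, 566.7 and 540.9 normalized CPM in Wt and 376.1, 297.3, 518.9 and 397.9 in Tg, a log2 fold change of -0.36 with overlap through Tg replicate 3.

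For chaperone and unfolded protein response genes the log2 fold changes had their median at -0.091, and at -0.0588 without Tg replicate 1, and 23 of 28 tested were below 0. This median was the lowest of the 14 lists but for the fit without Tg replicate 3, where it was -0.113 and that of fibrillar matrix genes -0.1765. None was called by edgeR or DESeq2, and 3 of the 28 were lower in Tg at an unadjusted p under 0.05 (1.99% of all genes), each without overlap (1.46%), while 0 were higher (3.62%). Hspa5, the lumenal chaperone BiP, had 1160, 1325, 1216 and 1215 normalized CPM in Wt and 835.0, 1063, 1158 and 1365 in Tg, a log2 fold change of -0.15. The Tg samples of Hspa5 spread over a wide range, with replicates 1, 2 and 3 below and replicate 4 above all Wt samples. Calr, a lumenal lectin chaperone, had 1329, 1359, 1279 and 1312 normalized CPM in Wt and 1052, 1211, 1230 and 1258 in Tg, a log2 fold change of -0.15 (adjusted p = 0.832). Pdia6, a disulfide isomerase, had 712.3, 733.2, 684.8 and 698.6 normalized CPM in Wt and 641.0, 655.0, 673.7 and 673.0 in Tg, a log2 fold change of -0.098. Atf4, the transcription factor of the integrated stress response, had a log2 fold change of -0.084. The list's sum was 8382, 9016, 8753 and 8487 normalized CPM in Wt and 7261, 7931, 8173 and 8854 in Tg, and Tg replicate 4 lay within the Wt range.

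Immediate early genes and targets of ERK signalling had a median log2 fold change of 0.073 over 23 tested, 18 above 0 and 5 below, with 0 called by both tools, and it was 0.0319 without Wt replicate 3. At an unadjusted p under 0.05, 3 were higher in Tg and 0 lower, namely Egr3, Phlda1 (0.23) and Dusp4 (0.24), a phosphatase of the pathway. Cell division genes had a median of 0.031 over 24 tested, 20 above 0 and 4 below, with 0 called by both tools, 1 higher in Tg at an unadjusted p under 0.05 and 0 lower. It was 0.0478 without Wt replicate 2, 0.00946 without Wt replicate 4, 0.01755 without Tg replicate 1 and 0.06603 without Tg replicate 3. Mki67, a marker of dividing cells, had 455.1, 471.3, 519.3 and 454.1 normalized CPM in Wt and 506.0, 490.3, 444.7 and 509.2 in Tg, with overlap. Of 12 genes listed beside Pmp22 on its chromosome, 9 were tested, 0 were called by both tools and 0 reached an unadjusted p under 0.05, with a median log2 fold change of -0.022, which was -0.0518 without Wt replicate 3, 0.0454 without Tg replicate 1, -0.0669 without Tg replicate 2, -0.0672 without Tg replicate 3 and -0.009592 when scaled to total counts alone. The plot of the lists by log2 fold change shows each of the 14 medians close to 0 and the perlecan gene at the right edge of the 2 lists that hold it.

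**Figure D4:**
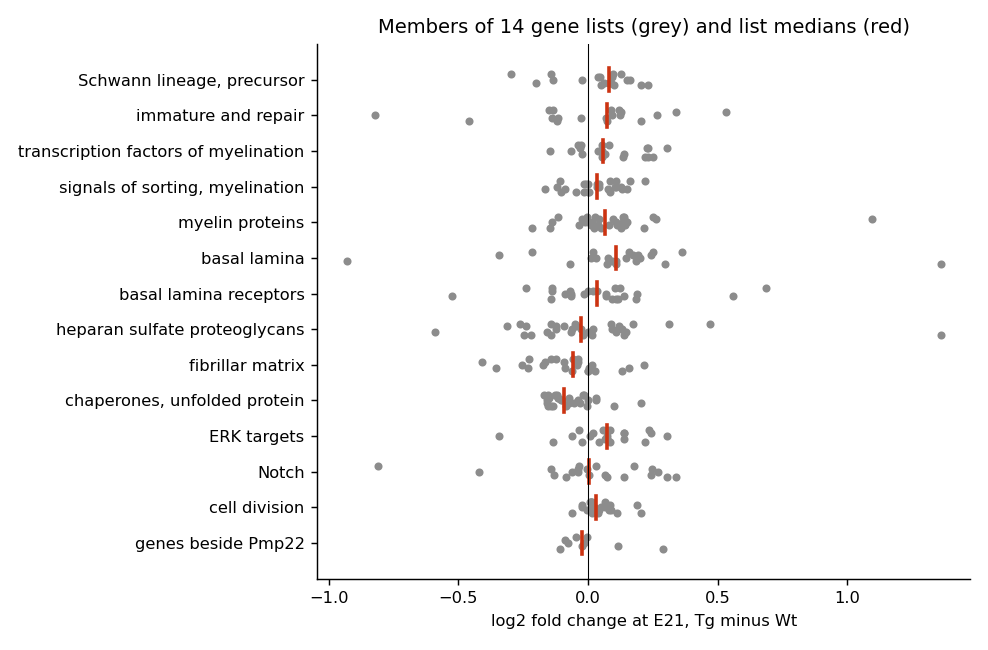
Log2 fold change at E21, Tg minus Wt, of each tested gene in 14 lists (grey points), with the list median as a red bar. The medians run from -0.091 for chaperones to 0.108 for basal lamina genes, and the point at 1.36 in the lists of basal lamina and heparan sulfate proteoglycans is Hspg2.

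Markers of the other cells of the nerve were not called by either tool. Fibroblast markers had a median log2 fold change of -0.11 over 11 tested, 10 of them below 0, and summed to 39490 normalized CPM on average in Wt and 39320 in Tg, with Col3a1 the most abundant. This list shares Col3a1, Col1a1, Col1a2, Dcn and Lum with the fibrillar matrix list, of which 19 of 25 were below 0. Perineurial markers had a median of -0.0074 over 9 tested, with mean sums of 1196 and 1212 normalized CPM. Endothelial markers had a median of -0.065 over 11 tested, with mean sums of 748.0 and 700.1, and pericyte and smooth muscle markers one of -0.11 over 10 tested, with 1017 and 977.2. For macrophages the median was -0.031 over 12 tested, and for mast cells 0.30 over 9 tested, where the highest sum, 170.7 normalized CPM, was in Tg replicate 3. Erythroid markers, led by Hbb, summed to 28250, 21930, 8551 and 10970 normalized CPM in Wt and 16200, 7894, 18250 and 10850 in Tg, with a median of -0.10 over 8 tested. These sums varied several-fold within each genotype, and the groups overlapped. Adipocyte markers had a median of -0.18 over 6 tested, neuron markers -0.084 over 15, cartilage, bone and tendon markers -0.012 over 9, and Y-linked genes -0.998 over 3. Pou4f1, a factor of sensory neuron nuclei, and Hbe2 were at 0 in all 8 samples. At an unadjusted p under 0.05, the fibroblast, adipocyte and cartilage lists had 1 gene lower in Tg each, the pericyte list 1 higher, the neuron list 1 in each direction, and the other marker lists 0.

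The later ages show whether the genes named at E21 differed again in other animals, with all 24 samples normalized and fitted together over 15951 genes. Hspg2 on this scale had 105.6, 77.98, 108.1 and 118.2 normalized CPM in Wt and 245.7, 251.3, 249.3 and 300.0 in Tg at E21. At P6 it had 303.3, 375.8, 430.0 and 365.0 in Wt and 523.2, 538.9, 383.5 and 468.6 in Tg. At P18 it had 385.3, 286.0, 237.2 and 231.6 in Wt and 439.0, 310.2, 304.7 and 251.1 in Tg. The genotypes were apart at E21 and overlapped at P6 and P18, and each Wt sample of P6 was above the Tg samples of E21. In this model the log2 fold change of Hspg2 was 1.35 at E21 (adjusted p = 0.000766), 0.38 at P6 (adjusted p = 0.634) and 0.19 at P18 (adjusted p = 0.44). The genotype difference of Hspg2 was smaller at P18 than at E21 by 1.16 log2 units (SE 0.24, adjusted p = 0.00207). Its change from E21 to P6 was -0.97 (SE 0.24, adjusted p = 0.408) by edgeR, which did not call it, and DESeq2 called it with -0.99 (adjusted p = 0.0163). Hspg2 was picked for its E21 difference, which enters both changes, and their p-values do not allow for that choice.

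Pmp22 took another course. With all 24 samples normalized together, it had 1425, 1336, 1286 and 1278 normalized CPM in Wt and 1579, 1657, 1425 and 1635 in Tg at E21. At P6 the values were 22830, 23590, 22520 and 22410 in Wt and 26160, 23540, 23850 and 24540 in Tg, and at P18 they were 44940, 45590, 46850 and 45990 in Wt and 23840, 24980, 24580 and 24190 in Tg. Wt and Tg touched at 1425 at E21, overlapped through Wt replicate 2 at P6, and were far apart at P18, with Tg the lower. Its log2 fold change was 0.10 at P6 (adjusted p = 0.882) and -0.91 at P18 (adjusted p = 9.48e-10). The genotype difference of Pmp22 fell by 1.15 log2 units from E21 to P18 (adjusted p = 2.3e-08). Since the row counts reads on the rat gene, the total of rat and mouse Pmp22 at each age is not known here.

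AC130064.1 kept the genotypes apart at each age. Its counts at P6 were 0 in all 4 Wt samples and 223, 276, 231 and 243 in Tg, and at P18 they were 1, 0, 0 and 0 in Wt and 152, 183, 184 and 172 in Tg. The Tg levels were 14.47, 12.23, 13.24 and 9.61 normalized CPM at P6 and 12.19, 11.42, 10.84 and 11.8 at P18. At P6 the Tg mean was at least 313-fold higher than the 3 counts over the group that the Wt samples allow. Each of the 12 Tg samples of the series thus held reads of this row, and 1 of the 12 Wt samples held a single count. The plot of the 3 genes by age shows Hspg2 apart at E21, Pmp22 crossing over by P18, and AC130064.1 near 0 in every Wt sample.

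**Figure D5:**
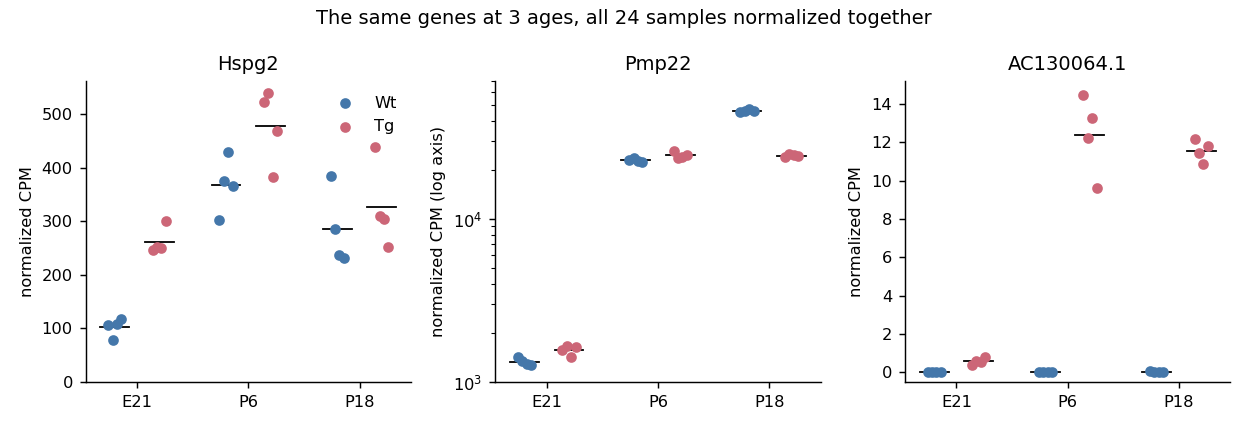
Normalized CPM of Hspg2, Pmp22 (log axis) and AC130064.1 at E21, P6 and P18 in Wt (blue) and Tg (red), 4 samples each with the mean as a line, all 24 samples normalized together. Hspg2 has no overlap at E21 and overlaps later, Pmp22 of Tg is the lower at P18, and AC130064.1 is at 0 or 1 count in each Wt sample.

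Of the 83 named genes tested in the 24-sample model, edgeR called 2 at E21, both higher in Tg, beside 2 of all 15951 genes. They were Hspg2 and AC130064.1, the latter again a row that entered the test only through its Tg samples. At P6 edgeR called 2 higher in Tg, AC130064.1 and Dusp4 (log2 fold change 0.62, adjusted p = 0.0218), beside 36 of all 15951 genes (0.226%). Over the 8 P6 samples alone edgeR called 1 named gene, AC130064.1 and not Dusp4, beside 9 of 15879 genes (0.0567%), and DESeq2 over the 24 samples called 7, with 4 higher and 3 lower, beside 178 (1.12%). At P18 edgeR called 39, with 22 higher and 17 lower, beside 4105 of all genes (25.7%). The change of the genotype difference from E21 to P6 was called for 0 of the 83 and for 0 of all genes (0%) by edgeR, and for 2 of the 83 by DESeq2, beside 25 of all genes (0.157%). From E21 to P18 it was called for 24 of the 83, 14 up and 10 down, beside 1797 of all genes (11.3%). Many of the 83 were picked by their E21 difference, which is a term of this change, so the 2 shares are not a fair comparison. Scaled to total counts alone, 30 of the 83 were called, 24 up and 6 down, beside 3855 of all genes (24.2%), of which 3407 were up and 448 down. That scaling moved the median change of all genes from 0.005339 to 0.2307. Hdac4, Zfp516 and Notch1 were called higher in Tg at P18, with log2 fold changes of 0.65 (adjusted p = 4.19e-05), 0.86 (adjusted p = 2.89e-06) and 0.59 (adjusted p = 0.0012). Sh3pxd2a had a log2 fold change of 0.65 at P6 (adjusted p = 0.108) and 0.38 at P18 (adjusted p = 0.0903). Other genes with small p-values at E21 lay in the opposite direction at P6. Rn7sl1 had a log2 fold change of -1.75 (adjusted p = 0.731), AABR07000398.1 one of -1.35 (adjusted p = 0.825) and Hspa8 one of 0.51 (adjusted p = 0.838), none called. At P18 they were 1.504 (adjusted p = 0.171), 1.72 (adjusted p = 0.106) and -0.93 (adjusted p = 0.0284), where Hspa8 was called lower in Tg. The positive values of Rn7sl1 and AABR07000398.1 at P18 rest on Tg replicate 4, as the other 3 Tg samples had 9.387, 9.423 and 9.075 normalized CPM for Rn7sl1 and 313.8, 322.3 and 264.5 for AABR07000398.1, against 9.499, 16.26, 19.08 and 50.48 and against 289.6, 466.8, 462.2 and 1365 in Wt. Prrc2b, Mical3, Pcdhgc3 and Ndst1 had log2 fold changes from 0.0079 to 0.20 at P6 and from -0.023 to 0.23 at P18, with adjusted p-values of 0.129 or more.

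Genes that differed at the later ages were looked up in the E21 comparison. Of 1996 genes called higher in Tg at P18, 1959 were tested at E21, and 1310 of these had an E21 log2 fold change above 0 and 649 below, with a median of 0.047. Over all 15762 genes tested at E21, 7988 were above 0 and 7774 below. At E21, 164 of the 1959 were higher in Tg at an unadjusted p under 0.05 and 25 lower, where 3.62% of all genes were higher and 1.99% lower. Of 2109 genes called lower at P18, 2059 were tested at E21, with 1290 below 0, 769 above and a median of -0.032. Among these 2059, 72 were lower at an unadjusted p under 0.05 and 33 higher, beside the same 1.99% and 3.62% of all genes. The P6 calls were few: 12 of the 15 higher in Tg were tested at E21, with a median of 0.053 and 7 above 0, and 20 of the 21 lower, with a median of -0.0082 and 12 below 0. At an unadjusted p under 0.05 at E21, 3 of the 12 were higher in Tg and 0 lower. Of the 20, 2 were higher and 1 lower, beside the same 3.62% and 1.99% of all genes.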

How the data were processed

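The authors deposited a table of expected counts from RSEM 1.2.29 with Bowtie2 2.0.2 on the rat genome rn6 and Ensembl gene models, neither normalized nor filtered, for 32402 rows. RSEM divides reads that match several genes, and 15.4% to 17.7% of the E21 values per sample were not whole. Values were rounded to whole counts. Tests at E21 took the genes whose normalized counts averaged 5 or more over its 8 samples. They were run with edgeR 4.0.16 in R 4.3.3, using TMM normalization, the quasi-likelihood F test and Benjamini-Hochberg adjustment at 0.05, with DESeq2 1.42.0 as the other tool. Ages were compared in 1 model of 6 groups over all 24 samples. Standard errors are the log2 fold change over the square root of F.

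Named genes are Pmp22, Hspg2, AC130064.1 and Acta1, each gene called, 11 Schwann cell genes, 1 of them counted but not reported here, the 2 lowest and 2 highest of each programme list, and in each direction the 10 genes with the smallest p among those with a mean count of at least 50 and no overlap. Other genes in the text were chosen after their values were seen. Members and lists were chosen with earlier results of these data known.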

Additional observations from a re-analysis of the deposited data

Results flagged for a closer look

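A sample was singled out when its gap to the nearest of its group, as a share of the group's range, exceeded Dixon's 95% critical value for 4 samples, which chance does in about 1 in 20 groups. Of 234 groups of E21 values looked at, 11 were marked. Acta1 of Tg replicate 2 stood at 1204 normalized CPM and the summed muscle markers of that sample at 6801, with the mitochondrial sum at 64230 and Sgca, a muscle sarcoglycan, at 14.75. Hspg2 of Tg replicate 4 was 314.3 normalized CPM, above the other Tg samples. Among Wt samples, Naaa in replicate 4 was 5.722 normalized CPM, Elac2 in replicate 3 was 27.85, Cadm3 in replicate 3 was 39.5 and Zfp287 in replicate 1 was 5.866. In Tg replicate 1, Artn was 4.265 normalized CPM and Creld2 37.98.

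The genotype difference, as log2 fold change, differed between E21 and P18 in the 24-sample model of edgeR for each of the 23 named genes given here, with adjusted p-values from 1.05e-09 to 0.0388. The test was of the difference itself. Many of these genes were named for their E21 values, which the test uses again, and the p-values do not allow for that choice. Among named genes of myelin and axon contact, the change was -1.164 for Mbp, -1.152 for Pmp22, -0.7183 for Nfasc and -0.6024 for Cadm4, while others did not pass, with changes from -1.951 to -0.34, among them Mag (-0.34), Tspan2 (-0.47) and Cadm3 (-0.45). The change was -1.157 for Hspg2, -0.4331 for Mical3 and -0.2315 for Smo, and for the neighbours of Pmp22 on its chromosome it was -2.172 for Tekt3 and -0.9284 for Trim16.

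Among named immature and repair genes, the change was 2.076 for Ngfr, 1.159 for Jun, 1.39 for Sox2, 3.43 for Bdnf and 4.215 for Fgf5, while Ncam1 (0.27), Notch1 (0.26), Gap43 (0.22) and Artn (-0.65) did not pass. The receptor genes Cnr1 and Erbb3 moved by 2.159 and 0.3172, the transcription factors Pou3f2, Egr3 and Fosl1 by 1.577, 1.473 and 1.185, and Dusp4 and Ppp1r15a by 1.936 and 0.3975. Of the named cell division genes, Rrm2 moved by 1.369 and Birc5 by 0.8041, while Ccne1 (0.78) and Ccne2 (0.48) did not pass. Scaled to total counts alone, each of the 23 changes kept its sign, and those of Mical3, Smo, Cadm4 and Nfasc no longer passed. With that scaling the change was -0.2062 for Mical3, -0.00592 for Smo, -0.3806 for Cadm4 and -0.4936 for Nfasc, so that of Smo was near 0. At E21 none of these 23 but Hspg2 was called by edgeR over the 8 samples, and DESeq2 called Hspg2, Mical3 and Pmp22 among them.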

How the results depend on the processing

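Hspg2 was called in 15 of 25 other settings, and its log2 fold change ran from 1.163 to 1.44 over them, with adjusted p-values from 5.29e-26 to 0.9999. The edgeR count of 1 gene called at E21 was 2 with all 24 libraries in the model and 69 by DESeq2. It was 0 in the high-Acta1 libraries (540 genes at an unadjusted p under 0.05), 0 with Eif2s3y as covariate (654) and 0 with structural RNA as covariate (522). In the low-Acta1 libraries 1 gene was called, Rpl12, and not Hspg2. Leaving out 1 library gave counts from 0 to 1, with 1 without Wt replicate 2 or 4 and 0 without each of the other 6 in turn, where 724 to 1097 genes had an unadjusted p under 0.05. The Acta1 split and these covariates were chosen after the data were seen, and the cause of each change was not tested. The split also left fewer libraries in each fit. The structural RNA covariate set the genotypes apart, so its fit cannot separate it from genotype.

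The replicate block, which treats equal replicate numbers as paired, gave 3 calls, Hspg2 and the 2 copies of 7SL RNA, and 5 with the Acta1 covariate, where Chchd2 and AABR07000398.1 joined. The numbers do not pair the samples, as correlations between equal numbers ran from -0.471 to 0.429.

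For Hspg2 the log2 fold change was 1.357 in the low-Acta1 libraries (adjusted p = 0.0564), 1.355 in the high-Acta1 libraries (adjusted p = 0.9999), 1.353 with Eif2s3y (adjusted p = 0.151) and 1.163 with structural RNA (adjusted p = 0.9998). With 1 library left out it ran from 1.249 to 1.44. The fitted value of AC130064.1 was 6.332 with all 24 libraries and 5.835 by DESeq2, both past the threshold, but it depends on the prior count and the row entered the tests only through its Tg libraries, so nothing is drawn from these calls. Pmp22 passed by DESeq2 (0.2495). At P6, edgeR called 1 named gene, AC130064.1, in the libraries of that age alone and DESeq2 called 7, with 4 higher and 3 lower, and for the change from E21 to P6 DESeq2 called 2, with -0.9943 for Hspg2. For the change from E21 to P18, scaling to total counts gave 30 named calls, 24 up and 6 down, in place of 24, 14 up and 10 down. Medians with 1 library left out ran from 0.008 to 0.09025 for immature and repair genes and from -0.0127 to 0.05026 for basal lamina receptors, below 0 without Wt replicate 4 or Tg replicate 2. Under the scalings and count filters and under DESeq2, 0 of the named genes changed sign, against 9 of 84 with Eif2s3y and 31 of 84 with structural RNA as covariate.

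With 4 libraries per genotype, genes that miss the threshold are not shown to be equal. The labels give neither litter, dissection, sex nor the date or batch of library preparation. AC130064.1 rests on 7 to 13 counts per Tg library, and rows with shared sequence are uncertain.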

Other observations

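Among genes tested at E21, 2 had 0 counts in all samples of one genotype and reads in all 4 of the other, and both were looked up after their values were seen. AC130064.1 is described above. AABR07062390.2 had counts of 25, 15, 6 and 12 in Wt and 0 in all 4 Tg samples, at least 19.8-fold lower in Tg against 3 counts over the group. This floor covers counting error only. The row passed the count filter only through its Wt samples, so its tests add nothing to these counts. At P6 AABR07062390.2 was at 0 in all 8 samples, Wt among them, and at P18 it had 0, 16, 28 and 0 counts in Wt and 0 in Tg.

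Rpl12, a ribosomal protein gene also picked after its values were seen, had 23, 120, 14 and 105 counts in Wt and 1566, 437, 509 and 985 in Tg at E21. At P6 its counts ran over 221, 679, 1308 and 1623 in Wt and 649, 636, 0 and 406 in Tg, so that the order of the genotypes was not kept at that age. At P18 its counts were 769, 443, 0 and 311 in Wt and 1126, 1008, 764 and 351 in Tg, with overlap through Tg replicate 4. Its deposited values were not whole numbers, since it shares reads with other rows, and its level is uncertain. Chchd2 was likewise irregular, with 0, 0, 16 and 0 counts in Wt and 503, 473, 33 and 61 in Tg at E21. At P6 its counts were 464, 1, 0 and 540 in Wt and 747, 0, 2 and 0 in Tg. Those at P18 were 10, 113, 356 and 0 in Wt and 637, 657, 689 and 362 in Tg, with each Tg count again above each Wt count.

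The levels of 234 of the 15762 genes tested went with Acta1 across the 8 E21 samples by edgeR, 232 upward and 2 downward. Skeletal muscle markers made up 27 of the 234, where 28 of these markers were tested. Acta1 belongs to that list and was set against its own level, so its own result was fixed in advance.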
